A study of Rattus norvegicus with 8 samples.

Results

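The claudins described here are 8 of the 27 claudin and claudin-domain genes with a probe on the array, among 13903 named genes in all. They are Cldn1, Cldn3, Cldn4, Cldn5, Cldn7, Cldn8, Cldn11 and Cldn14. The 8 genes were chosen by name with their log2 intensity differences between streptozotocin-treated and sham skin already known, with no threshold, so their changes in that contrast are given as a description, without a p-value. Each had 1 probe, printed as 1 spot per array, matched through its RefSeq accession, and all 8 were well above background in all 8 samples. None of their spots carried an outlier flag.

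Claudins are small proteins that cross the membrane of a cell and bind claudins of the next cell, and the strands they form close the gap between the cells. Which claudins a cell makes sets how tight the seal is and which ions may pass. In skin the seal lies in the granular layer of the epidermis and continues into the hair follicle, while endothelium and myelin have claudins of their own.

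Full-thickness skin of male Sprague-Dawley (SD) rats was profiled on 1-colour Agilent arrays. STZ rats were 4 weeks old when given 60 mg/kg streptozotocin, a toxin of insulin-producing beta cells, intraperitoneally to induce diabetes. Sham rats received sodium citrate solution. Skin was taken 4 weeks later, at 8 weeks of age in both groups. The labels mention a cutaneous wound too, but do not settle if these skin samples came from it. They do not say how many rats an array stands for.

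The labels list 4 samples per group, but by the headers these are 2 scans of 1 slide. Within a group, replicates 1 and 3 share an array position, as do replicates 2 and 4. The deviations of single spots from their mean had a correlation of 0.966 or more within such pairs, and of 0.662 or less otherwise. The scans were therefore averaged to 2 arrays per group (n = 2). Array A below means replicates 1 and 3, and array B means replicates 2 and 4. Sham samples had a 75th percentile of intensity between 1138 and 1336, against 1481 and 1496 on STZ array A, and 606 and 624 on STZ array B. The keratin genes Krt14 and Krt1 and the collagen gene Col3a1, all made in skin, were well above background in all 8 samples. A level is a log2 intensity over the 75th percentile of its array. A change is the STZ mean minus the sham mean, less the median of this difference over the 21511 tested probes, which was 0.23. In whole skin, fewer cells of a type and less RNA per cell cannot be told apart. With 2 arrays against 2, an exact permutation test cannot go below p = 0.333.

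The RefSeq promoter table (assembly GRCr8) held 7 of the 8 claudins, and 5 windows are printed. Cldn1, Cldn3 and Cldn8 are shown because their levels were lower on STZ array B than on STZ array A, Cldn14 because its change was the largest of the 8, and Cldn7 because its groups overlapped. Each window runs 5′ to 3′ along the gene's strand, from 250 bases before the start of the gene to 50 bases after it. Capitals mark matches to any of the 7 motifs named after the sequences. Cldn1 lies at chr11:87926126-87926425 (+), Cldn3 at chr12:27346498-27346797 (-), Cldn7 at chr10:55188420-55188719 (+), Cldn8 at chr11:41364281-41364580 (-) and Cldn14 at chr11:46711689-46711988 (-). The Cldn14 window stands at a start inside the annotated span of the gene, not at its outer end. In the Cldn8 window an atg triplet follows the start almost at once, with no stop triplet in its frame up to the window's end. That annotated start may therefore be a coding start and not a transcript start, which was not tested.
Cldn1: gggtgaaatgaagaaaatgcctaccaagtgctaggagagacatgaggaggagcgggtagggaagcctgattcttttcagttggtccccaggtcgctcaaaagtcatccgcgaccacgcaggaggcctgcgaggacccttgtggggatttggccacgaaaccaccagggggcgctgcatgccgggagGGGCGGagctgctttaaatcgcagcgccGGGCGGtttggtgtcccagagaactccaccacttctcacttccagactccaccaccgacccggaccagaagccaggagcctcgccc
Cldn3: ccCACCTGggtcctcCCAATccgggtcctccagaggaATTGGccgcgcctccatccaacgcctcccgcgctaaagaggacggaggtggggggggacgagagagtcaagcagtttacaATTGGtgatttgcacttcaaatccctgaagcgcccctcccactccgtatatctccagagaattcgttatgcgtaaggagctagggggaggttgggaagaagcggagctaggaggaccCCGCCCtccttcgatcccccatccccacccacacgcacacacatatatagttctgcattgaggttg
Cldn8: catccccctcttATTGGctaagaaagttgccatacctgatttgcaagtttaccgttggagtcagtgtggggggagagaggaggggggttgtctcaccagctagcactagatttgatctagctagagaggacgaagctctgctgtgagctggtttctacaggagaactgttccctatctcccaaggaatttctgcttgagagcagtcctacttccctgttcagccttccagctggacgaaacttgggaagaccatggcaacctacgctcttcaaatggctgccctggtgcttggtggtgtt
Cldn14: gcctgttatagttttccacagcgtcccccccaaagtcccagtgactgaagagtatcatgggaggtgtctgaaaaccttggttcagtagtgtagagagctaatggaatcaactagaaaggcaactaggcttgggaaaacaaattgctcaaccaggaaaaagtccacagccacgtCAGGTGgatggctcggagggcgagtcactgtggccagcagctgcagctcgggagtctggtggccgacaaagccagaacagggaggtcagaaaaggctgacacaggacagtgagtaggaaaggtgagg
Cldn7: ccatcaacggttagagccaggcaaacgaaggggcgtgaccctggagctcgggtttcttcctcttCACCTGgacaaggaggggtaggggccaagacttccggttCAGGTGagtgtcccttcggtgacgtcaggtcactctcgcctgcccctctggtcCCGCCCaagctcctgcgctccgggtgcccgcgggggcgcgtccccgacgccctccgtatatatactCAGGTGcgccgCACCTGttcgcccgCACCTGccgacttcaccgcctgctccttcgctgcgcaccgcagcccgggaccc

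The motifs were searched on both strands. The GC box GGGCGG was in 5 of the 7 claudin windows (33.1% of all 33365 windows of that length) and CCAAT in 4 (37.5%). CACCTG, the E-box that Snail-type repressors can bind, was also in 4 (18.9%). TATAAA (14.2%), the AP-1 motif TGANTCA (7.34%), the Grainyhead motif AACCNGTT (2.10%) and the TCF/LEF motif CTTTGAT (3.63%) were in none of the 7. No matched motif overlapped another in the printed windows. Cldn7 held 5 matches to CACCTG, and Cldn14 held 1, read on the reverse strand. CpG pairs numbered 28 in the Cldn7 window, 17 in Cldn1, 16 in Cldn3, 6 in Cldn14 and 4 in Cldn8, against a median of 7 over all windows. These are matches of letters, not measured binding sites. The Cldn8 window may be set at a coding start, so its counts may not compare with those of the other windows. The windows of the claudins with lower levels held no motif in common among those searched.

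Cldn14 was the furthest below its sham level, and the other claudins with a large change were Cldn8, Cldn3, Cldn4 and Cldn1. Cldn5 and Cldn7 overlapped between the groups. Of the 8, 7 were below the median change and 1 above, and a median splits all probes into 50% each way. For 6 of the 8, both STZ arrays lay below both sham arrays, which held for 17.9% of all tested probes. Since this contrast chose the genes, nothing is read from these shares. At an unadjusted p under 0.05 by limma, 3.52% of all tested probes were lower and 7.32% were higher. After Benjamini-Hochberg adjustment over all probes, limma called 0% of them.

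**Figure D1:**
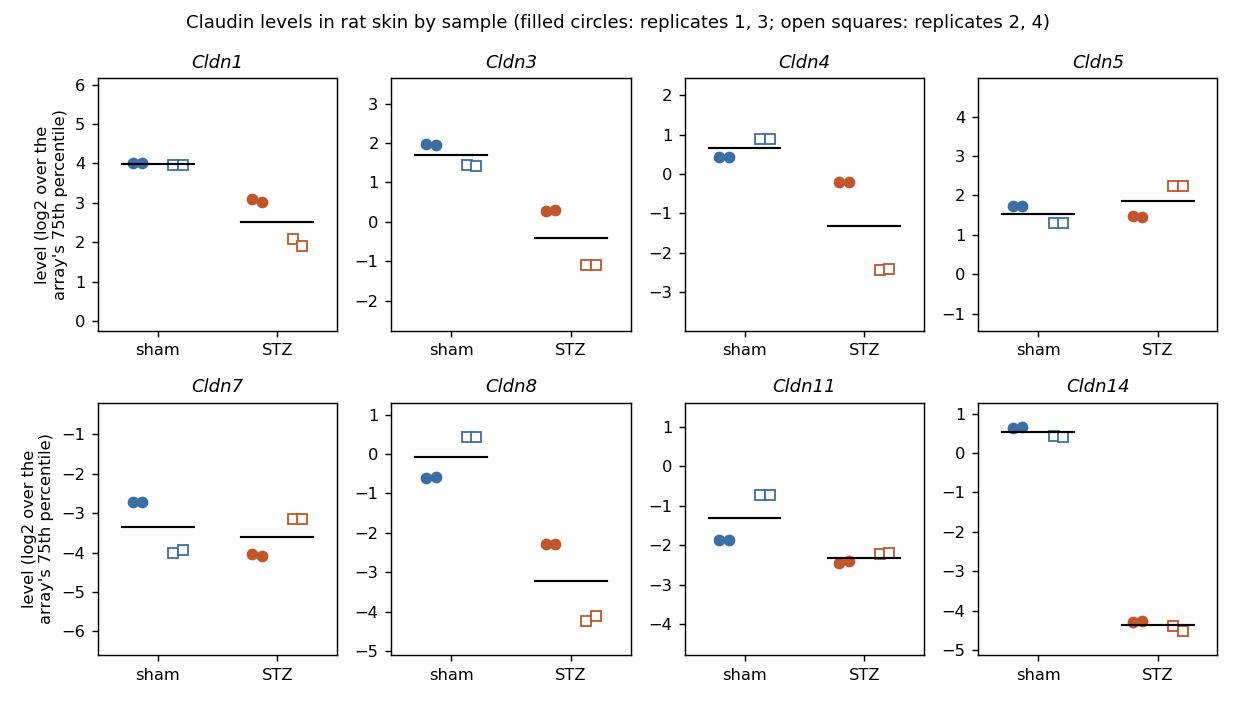
Levels of the 8 claudins in each sample, as log2 intensity over the 75th percentile of the array, with 1 panel per gene and panels of equal height in log2 units. Points are single scans, filled circles for replicates 1 and 3 (array A) and open squares for replicates 2 and 4 (array B), and bars are group means of the 2 arrays. Scans of 1 array lie almost on each other, and Cldn14 in STZ lies far below sham on both arrays.

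Cldn1 is the main sealing claudin of the epidermis, and mice without it lose water through the skin and die soon after birth. Its level was 4.01 on sham array A and 3.96 on sham array B, against 3.06 and 1.99 on STZ arrays A and B. The sham arrays were almost alike, both STZ arrays were lower, and array B was the lowest. The means were 3.99 ± 0.039 in sham and 2.52 ± 0.76 in STZ (SD, n = 2). The change was −1.69 ± 0.53 (SE), a 3.23-fold lower level.

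Cldn3 and Cldn4 are sealing claudins of many epithelia, and both are receptors of a clostridial enterotoxin. They are neighbours on chromosome 12, with no protein-coding gene between them. Cldn3 had levels of 1.97 and 1.43 on sham arrays A and B, and of 0.29 and −1.09 on STZ arrays A and B. Cldn4 had levels of 0.44 and 0.88 in sham, and of −0.20 and −2.43 in STZ. In both genes the STZ arrays were below the sham arrays, and STZ array B was well below STZ array A. The change of Cldn3 was −2.32 ± 0.62, with mean levels of 1.70 ± 0.38 in sham and −0.40 ± 0.97 in STZ. The change of Cldn4 was −2.20 ± 0.83, with mean levels of 0.66 ± 0.31 in sham and −1.31 ± 1.57 in STZ. Its SD in STZ was the widest of the 8. Against STZ array A alone the change of Cldn4 was −0.89, and against STZ array B alone −3.47. The same values were −1.44 and −3.17 for Cldn3 and −0.96 and −2.38 for Cldn1.

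Cldn7, a claudin that also lies along the lateral membrane of epithelial cells, had levels of −2.72 and −3.96 in sham and of −4.06 and −3.16 in STZ. The STZ arrays fell inside or just outside the sham range, on both sides of the sham mean. Its change was −0.50 ± 0.64, smaller than its SE. It was 0.15 without sham array A and −1.15 without sham array B. Its intensity was low, at 67.8 to 180 units over the 8 samples.

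Cldn8 is best known as a sealing claudin of the distal kidney tubule, where it pairs with Cldn4. Its level was −0.59 and 0.44 on sham arrays A and B, and −2.27 and −4.18 on STZ arrays A and B. Both STZ arrays were lower, and the gap between the STZ arrays was wider than that between the sham arrays. The change was −3.38 ± 0.80, a 10.4-fold lower level, from −0.075 ± 0.73 to −3.22 ± 1.35. It was −2.23 against STZ array A alone and −4.49 against STZ array B alone. Its intensity on STZ array B was 32.0 and 36.1 units, and after normexp background correction the change was −2.46. The gene next to it on chromosome 11, Cldn17, was named for this position after its values were seen. Cldn17 had levels of −1.85 and −2.23 in sham and of −0.47 and −2.25 in STZ, so that its groups overlapped (change 0.46 ± 0.71).

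Cldn14, known from inherited deafness and from calcium handling in the kidney, had levels of 0.65 and 0.42 in sham and of −4.27 and −4.45 in STZ. The STZ arrays were nearly alike and far below the sham arrays. The means were 0.53 ± 0.16 and −4.36 ± 0.13. The change was −5.12 ± 0.42, a 34.9-fold lower level. Its intensity was 1739 to 1855 in sham samples, 75.6 and 78.4 on STZ array A and 27.4 and 28.7 on STZ array B. After normexp background correction, which adds an offset and compresses low signals, the change was −3.76. Between the STZ arrays the level of Cldn14 differed by 0.18, against 1.07 to 2.22 for Cldn1, Cldn3, Cldn4 and Cldn8. The median difference in level between the STZ arrays was 0.73 over all tested probes. Relative to the median of all probes, array B minus array A was −0.53 for Cldn14, and −1.42 to −2.58 for those 4 claudins. The likeness of Cldn14 thus depends in part on the scale. On STZ array B the median of the probes well above background in no sample was −6.63, against −8.85 on STZ array A. The part of this floor in the likeness of Cldn14 between the STZ arrays was not tested.

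Cldn11 forms the tight junctions of central nervous myelin and of Sertoli cells in the testis. Its level was −1.87 and −0.73 in sham and −2.42 and −2.21 in STZ. Both STZ arrays were lower, though the sham arrays lay further apart than the STZ arrays did. The change was −1.25 ± 0.55, and it was −1.79 without sham array A and −0.70 without sham array B. The list of Schwann cell and nerve markers had all 11 tested genes below the median change, with a median of −1.37. Its summed level (intensity over the 75th percentile) was 36.6 and 39.0 in sham and 19.1 and 18.2 in STZ. None of its genes passed limma's test after adjustment (lowest adjusted p = 0.185), and 4 were lower at an unadjusted p under 0.05 (3.52% of all probes). Among these were Mag and Mbp, proteins of myelin, with changes of −2.43 ± 0.43 and −1.96 ± 0.45. All 11 were well above background in all 8 samples. Schwann cells belong to peripheral nerve, not to the central myelin named above for Cldn11. The part of this list in the Cldn11 result was not tested.

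Cldn5 is the main claudin of endothelium and seals the vessels of the brain. Its level was 1.73 and 1.31 in sham and 1.47 and 2.23 in STZ. STZ array B was the highest and STZ array A lay inside the sham range. The change was 0.10 ± 0.50, with a sign that turned without sham array B (−0.14) or without STZ array B (−0.081). The endothelium list had 6 of 8 tested genes higher, a median of 0.42 and no gene past limma's test (lowest adjusted p = 0.461, for Pecam1, an adhesion protein of endothelium). The median was 0.11 without STZ array B and 0.27 without sham array B. Its summed level was 31.9 and 26.1 in sham and 36.5 and 59.4 in STZ, also highest on STZ array B. All 8, among them Esam, were well above background in all 8 samples, and the part of this list in the level of Cldn5 was not tested.

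**Figure D2:**
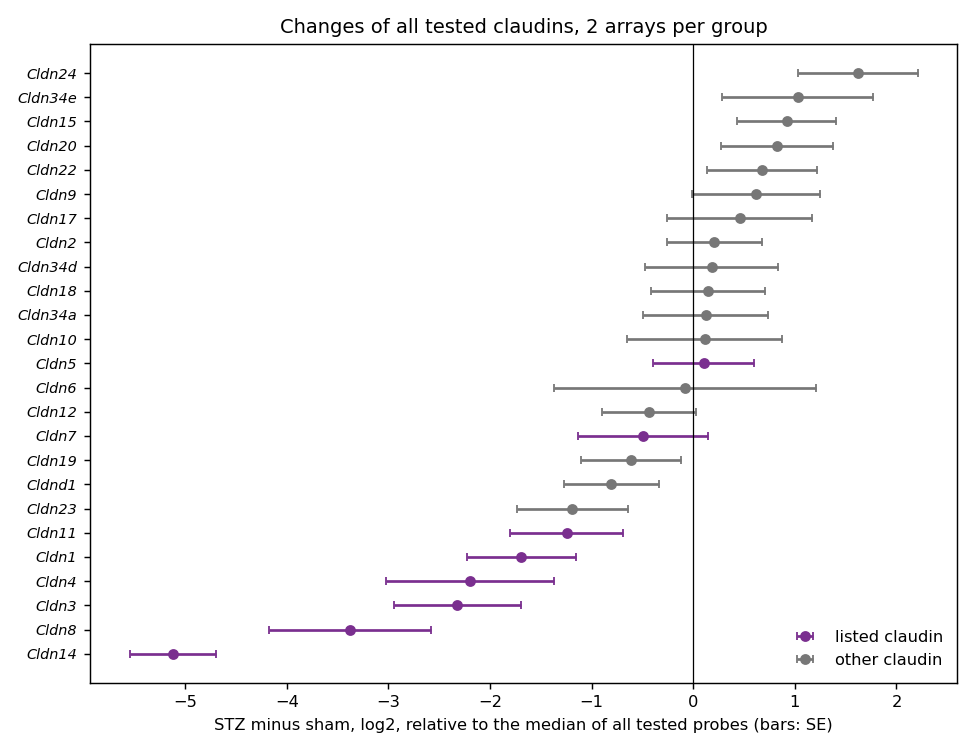
STZ minus sham for the 25 tested claudins on the log2 scale, less the median over the tested probes, with the SE of the limma fit as bars (2 arrays per group). The 6 lowest values, from Cldn14 at −5.12 to Cldn11 at −1.25, belong to listed claudins (purple), and the other claudins (grey) lie between −1.19 and 1.62. The listed claudins were chosen with their changes known, so nothing is read from this split.

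The other claudins were nearer to the median of all probes. Since the 8 were chosen with their changes known, nothing is read from this difference. Of 19 further claudin genes on the array, 17 were tested, and Cldn16 and Cldnd2 were not well above background in any sample. Among the 17, 12 were higher and 5 lower, with a median change of 0.18 and a range from −1.19 to 1.62. The median was 0.034 without sham array A, with 9 higher and 8 lower, 0.58 without sham array B, 0.58 without STZ array A and 0.10 without STZ array B. None passed limma's test after adjustment (lowest adjusted p = 0.369), and 1, Cldn24, was higher at an unadjusted p under 0.05 (7.32% of all probes were). For 5 genes both STZ arrays were above both sham arrays (26.9% of all probes), and for 2 genes they were below (17.9%). The lowest was Cldn23, another claudin of epithelia, with levels of 0.85 and −0.25 in sham and of −0.59 and −0.74 in STZ (change −1.19 ± 0.54). The claudin-domain gene Cldnd1 followed at −0.81 ± 0.47.

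The 6 other claudins with the highest changes were dim. Cldn24 had levels of −7.24 and −6.39 in sham and of −5.49 and −4.45 in STZ, with a change of 1.62 ± 0.59 that was 0.17 after normexp with quantile normalization. Cldn34e, Cldn15, Cldn20, Cldn22 and Cldn9 had changes of 1.03, 0.92, 0.82, 0.68 and 0.61. These 6 were each highest on STZ array B. On that array the median of the 1208 probes that were well above background in no sample was −6.63, against −9.02 to −8.85 on the other arrays. The part of this floor in the values of the dim claudins was not tested. Normexp with quantile normalization gave 0.06 for Cldn34e, 0.41 for Cldn15, 0.16 for Cldn20, 0.39 for Cldn22 and 0.12 for Cldn9.

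The partners of claudins in the tight junction were mostly lower, by less than Cldn14 or Cldn8. Of 12 tested membrane proteins of the MARVEL and immunoglobulin families, 8 were lower and 4 higher, with a median change of −0.54 that was −0.91 without STZ array A. Ocln, the gene of occludin, had levels of 1.26 and 0.62 in sham and of −0.32 and 0.39 in STZ, with a change of −1.13 ± 0.51. Marveld2, the gene of tricellulin, which sits where 3 cells meet, had a change of −1.01 ± 0.41. Lsr, the gene of angulin-1, which brings tricellulin there, had a change of −1.64 ± 0.63. Esam, an adhesion protein of endothelial junctions, was on the other side at 0.55 ± 0.43. None of the 12 was at an unadjusted p under 0.05, and the lowest adjusted p by limma was 0.518.

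Of 19 tested scaffold and polarity genes, 14 were lower and 5 higher, with a median of −0.62. At an unadjusted p under 0.05, 3 were lower (3.52% of all probes), and none passed after adjustment (lowest adjusted p = 0.269, limma). Tjp1, the gene of ZO-1, which ties claudins to actin, had levels of 2.90 on both sham arrays and of 1.93 and 1.90 in STZ, a change of −1.21 ± 0.41. Cgnl1, a cingulin-like scaffold, had a change of −1.94 ± 0.48, and Prkcz, an atypical protein kinase C of cell polarity, one of −2.05 ± 0.47 (−0.86 after normexp). For 9 of the 19 both STZ arrays were below both sham arrays (17.9% of all probes). The median was −1.23 without STZ array A, with 17 lower and 2 higher.

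All 16 tested genes of adherens junctions and desmosomes were below the median change, with a median of −1.004. On the 75th percentile scale, without the median subtracted, 14 were lower and 2 higher, with a median of −0.78. After normexp 15 were lower and 1 higher. Without STZ array B 11 were lower and 5 higher, with a median of −0.48, and without STZ array A the median was −2.03. None passed limma's test (lowest adjusted p = 0.158), and 3 were lower at an unadjusted p under 0.05 (3.52% of all probes). Dsc2, a desmosomal cadherin, had levels of 3.34 and 4.31 in sham and of 0.66 and −0.51 in STZ, a change of −3.98 ± 0.63. Nectin4 and Afdn, a nectin and the afadin that anchors nectins, had changes of −1.72 ± 0.47 and −1.69 ± 0.54. Evpl, the gene of envoplakin, had one of −2.67 ± 0.97.

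Among 22 tested regulators and proteases that act on claudins, 16 were lower and 6 higher, with a median of −0.59. It was −0.083 without STZ array B, −1.24 without STZ array A and −1.03 without sham array B. None passed after adjustment (lowest adjusted p = 0.265, limma), and 6 were lower at an unadjusted p under 0.05 (3.52% of all probes). Wnk4, a kinase that phosphorylates claudins in the kidney, had levels of 2.64 and 1.74 in sham and of 0.035 and −1.97 in STZ, a change of −3.38 ± 0.81. St14 and Prss8, the membrane proteases matriptase and prostasin that are needed for the epidermal seal, had changes of −2.12 ± 0.48 and −1.74 ± 0.48. Spint1, an inhibitor of matriptase, had one of −2.05 ± 0.56. Both STZ arrays were below both sham arrays for 10 of the 22 (17.9% of all probes) and above for 2 (26.9%). These 2 were Snai1 and Zeb2, with changes of 0.91 ± 0.45 and 0.66 ± 0.52. The list mixes repressors such as Snai1 with other regulators and proteases, so its counts and median have no single meaning.

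**Figure D3:**
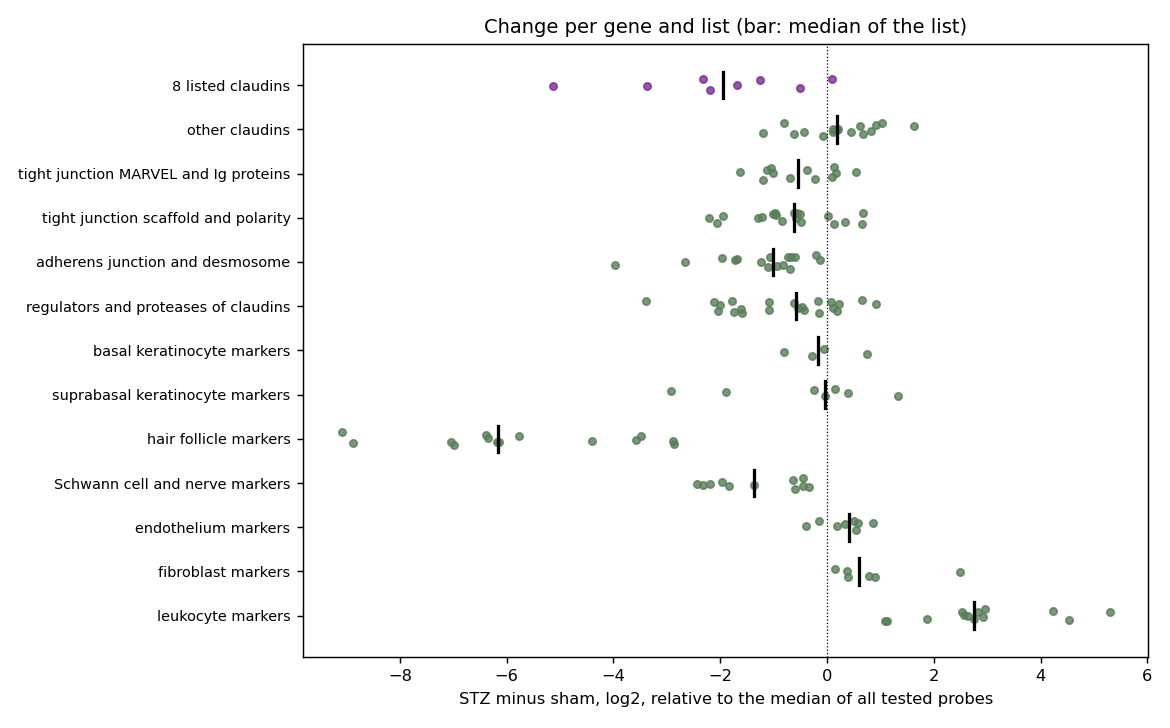
Change of each tested gene on the log2 scale, less the median over the tested probes, by list, with a bar at the median of the list. The 8 listed claudins have a median of −1.95, the other claudins one of 0.18, the hair follicle markers one of −6.16 and the leukocyte markers one of 2.76. The 8 claudins and the lists were chosen with earlier results of these data known.

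Markers of other cell types differed along with the claudins. All 14 tested hair follicle markers were lower, with a median of −6.16, and their summed level was 756 and 753 in sham, 98.6 on STZ array A and 6.98 on STZ array B. The inner root sheath keratins Krt28 and Krt72 had changes of −8.88 ± 0.82 and −9.09 ± 0.98. All 13 tested leukocyte markers were higher, with a median of 2.76 and summed levels of 75.2 and 35.4 in sham and of 332 and 456 in STZ. S100a8, a protein of neutrophils, had a change of 5.30 ± 0.42. The lowest adjusted p by limma was 0.101 in the hair list and 0.0949 in the leukocyte list, so no gene passed. In STZ, Shh was well above background in no sample and was not tested, and Foxn1 was so in 2 of 4 samples. In sham, Shh was so in 2 of 4 samples and all other hair markers in 4. The 4 tested basal keratinocyte markers summed to 285 and 132 in sham and to 253 and 226 in STZ, with 3 lower and a median change of −0.16. The 7 suprabasal markers summed to 118 and 81.2 in sham and to 194 and 108 in STZ, with 4 lower and a median of −0.034. Changes in this list ran both ways. Krt77 and Ivl, an epidermal keratin and involucrin, were at −2.92 ± 0.67 and −1.89 ± 0.42, and Sptlc3 and Sbsn at −0.24 and −0.034. Krt1, Tgm3 and Tgm1 were at 1.33, 0.39 and 0.14. All basal, suprabasal and leukocyte markers on the array were well above background in all 8 samples. The 7 sebaceous gland markers had a median change of 0.042, the 6 fibroblast markers 0.60, the 5 melanocyte markers −1.22 and the 8 skeletal muscle markers −0.59, with no gene past the adjusted threshold. The part of these cell types in the claudin values was not tested.

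The STZ arrays also differed from each other. Relative to the median of all probes, 6 of the 8 claudins were lower on STZ array B than on A, as were 13 of 14 hair follicle markers, 15 of 16 genes of adherens junctions and desmosomes, all 4 basal, all 7 suprabasal and all 7 sebaceous gland markers. Over all probes the share was 50.4%. The 6 claudins include Cldn11, at −1.16 against STZ array A and −1.30 against STZ array B, though its level was higher on array B. None of the 6 fibroblast markers was lower on array B. The median change was −1.06 against STZ array A and −2.77 against STZ array B for the 8 claudins, and −4.59 and −7.39 for the hair list. It was 0.74 and −0.77 for the suprabasal list, 1.29 and −1.06 for the sebaceous list, and 2.92 and 2.95 for the leukocyte list. Cldn14, dim on both STZ arrays, was at −4.84 and −5.37. The transcription factors of the hair list were at −3.59 and −3.35 (Msx2), −2.75 and −2.94 (Dlx3), −2.06 and −3.68 (Lef1), and −3.11 and −4.01 (Foxn1).

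**Figure D4:**
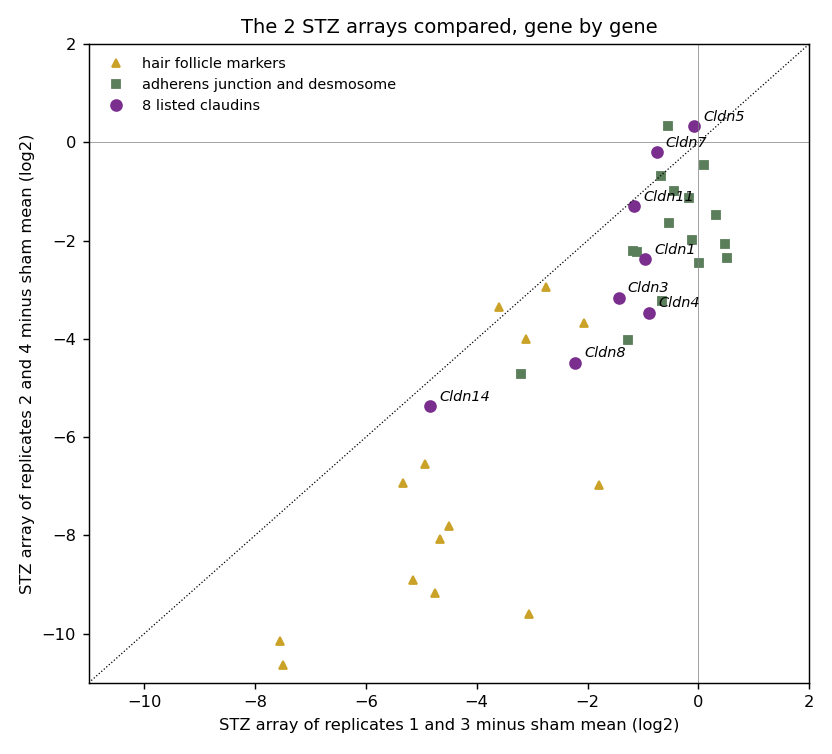
Each gene's level on STZ array A minus the sham mean (horizontal) and on STZ array B minus the sham mean (vertical), log2 and less the median over the tested probes, for the 8 claudins, the hair follicle markers and the genes of adherens junctions and desmosomes. Points below the dotted line of equal values were lower on array B. Cldn4 lies at −0.89 and −3.47, while Cldn14, dim on both STZ arrays, lies near the line at −4.84 and −5.37.

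The named genes with profiles most like each claudin were found by Euclidean distance over the 4 arrays, after subtracting each gene's mean, among 12599 genes. With 4 arrays this is a description of likeness in these arrays only. For Cldn3 they included Epb41l4b, at a distance of 0.13, and Nfasc (0.20). For Cldn4 it was Pkp3 (0.26), a desmosomal plakophilin, then Sema3e (0.31) and Car2 (0.37). For Cldn1 they were Dusp5 (0.13), Prom2 (0.14) and Rnd3 (0.17). For Cldn14 they were Bmp8a (0.18), Entpd3 (0.41) and Slc10a2 (0.42). For Cldn8 they were Slc30a1 (0.46), Sp6 (0.52) and Cpa1 (0.66), the largest distances found. For Cldn11 the nearest were the Wnt pathway genes Axin2 (0.058) and Fzd2 (0.087). For Cldn5 they were Rsrc1 (0.043), Pdzd11 (0.057) and Ptgr3 (0.058), and for Cldn7 Hmx1 (0.13), Ms4a2 (0.14) and Pcp4l1 (0.14). Among the claudins themselves, Cldn1 and Cldn3 were the closest pair (0.75), then Cldn5 and Cldn7 (0.84) and Cldn3 and Cldn4 (0.92). Cldn5 and Cldn14 were the furthest apart (5.27).

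**Figure D5:**
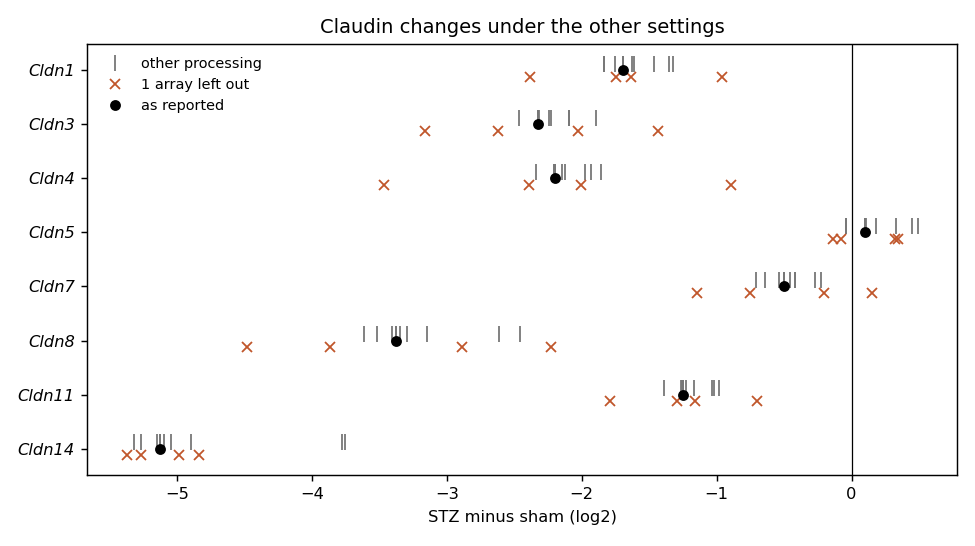
Change of each claudin on the log2 scale as reported (black points), under the other ways of processing (grey bars) and with each array left out in turn (crosses). Cldn14 and Cldn8 stay below −2 throughout, while Cldn5 and Cldn7 lie on both sides of 0.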

How the data were processed

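Total RNA was amplified, labelled with Cy3 and hybridised to 1-colour arrays, per the labels' protocols. The deposited intensity is Agilent's processed signal, background-subtracted and not normalized between arrays; its software was Feature Extraction 11.0.1.1 as the file headers state (11.0.0.1 per the submitters' processing notes). The deposited median spot and background intensities, used for normexp, are uncorrected. The deposited flags are other values, 0 or 1 per spot.

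Each sample's log2 signals were set against their 75th percentile over 42136 noncontrol spots, spots with an outlier flag were dropped, and spots of a probe and the 2 scans of an array were averaged. A probe was kept if 4 or more of 8 samples had it well above background, which left 21529 of 24684, and 21511 had a value on every array. STZ was compared with sham by limma 3.58.1 in R 4.3.3 (lmFit and eBayes, two-sided, Benjamini-Hochberg over all tested probes). A check on simulated independent probes required only that added changes be returned on average. It set no requirement on p-values or dim signals. Limma's p refers to the 75th percentile scale. Changes are printed less the median over probes, which the plan had as the alternative, since the scalings move that median by over 0.1; the swap was made after seeing the data. The SE is limma's moderated one. RefSeq names (GRCr8, versions dropped) covered 14294 probes, and the brightest probe stood for a gene. The headers name build rn4, so coordinates are given only for the RefSeq windows.

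The members and lists were chosen with earlier results of these data known. Named genes are the members, up to 4 per list with the smallest p (8 for other claudins), Tjp1 and Ocln, and the 3 nearest profiles per member; some of these are not reported here. Cldn17, Krt14, Krt1, Col3a1, Tgm1, Tgm3, Sbsn, Sptlc3, Dlx3, Lef1, Foxn1, Shh, Snai1 and Zeb2 were named outside that rule, after their values were seen. The number of arrays limits the precision, and p-values measure only the spread between these arrays. Alternatives were quantile normalization, normexp (offset 50, on the median spot signal), both together, no filter or a filter on all 8 samples, outlier spots kept, the mean of a gene's probes, each scan alone, 8 separate samples, each array left out, the replicate number as a block and array weights. The slide could not be a block, since all arrays lie on 1 slide.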

Additional observations from a re-analysis of the deposited data

How the results depend on the processing

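The direction of Cldn1, Cldn3, Cldn4, Cldn8, Cldn11 and Cldn14 was lower in STZ under all 18 alternatives run. Not all could change a claudin's value. Each claudin had 1 probe, so the mean of its probes was the reported value. The replicate block, also with numbers crossed, returned the reported value by design, and array weights practically did. The filters, kept outlier spots, 8 separate samples and the change without the median subtracted moved all 8 claudins by the same amount. Normexp, quantile normalization, single scans and arrays left out moved each claudin by its own amount. Cldn5 turned to −0.039 after normexp and also without a filter on dim probes (−0.039), and ran from −0.14 to 0.34 with 1 array left out. Cldn7 ran from −1.15 to 0.15. The cause was not tested. The number of the 8 claudins higher in STZ, 1 as reported, was 0 after normexp and without a filter, and 0 to 2 with 1 array left out. Of the 31 tested partners in the tight junction, 9 were higher as reported and 5 without a filter, which moves the median of all probes. The 12 other claudins higher in STZ were 9 to 13 under the alternatives.

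Probes past an adjusted p of 0.05 by limma numbered 0 as reported. At an unadjusted p under 0.05, 1575 were higher and 758 were lower. Those past the adjusted threshold were 10 after normexp, 5220 with the 8 samples as separate arrays, where each rescan counts as a replicate, and 0 to 48 with 1 array left out (48 without STZ replicates 1 and 3). The higher probes at an unadjusted p were 924 after normexp, 5306 with 8 separate samples, and 676 to 5380 with 1 array left out. The lower probes were 1151 after quantile normalization, 1356 after normexp with quantile normalization, 3301 with 8 separate samples, and 305 to 1094 with 1 array left out. With the replicate block, 0 probes passed, and at an unadjusted p 1581 lay higher and 590 lay lower. The block cannot move the changes, so 1 of the 8 claudins was higher, as reported. Deviations of same-numbered arrays correlated at −0.20, and with the numbers crossed, an alternative chosen after seeing the data, the counts were 0, 2083 and 762.

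Dim signals depend on the background setting. Cldn14 in STZ and Cldn8 on STZ array B were dim, and their changes were −3.76 and −2.46 after normexp, against −5.12 and −3.38 as reported.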
